A study of Mus musculus with 44 samples.

Results

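Plasma cells of young mice that carried a YFP mark 90 days after tamoxifen were compared between bone marrow and spleen. The comparison and the gene lists were chosen with earlier results of these data known. The libraries of the comparison were taken by their labels: mice of 6 to 8 weeks at tamoxifen, day 90, YFP+ cells. Each of mice F2, F7 and F9 gave a marrow and a spleen library. These are 6 of the 44 libraries of the series, 3 for each organ, and each pair comes from 1 animal. All cells were sorted as CD138high and B220-, and the genotype of the mice is labelled BEC-YFP. The YFP+ cells are labelled LLPC (the series title speaks of long-lived plasma cells). Which promoter drives the recombinase, and which cells of the host can carry the mark, is not given in the sources used here. The same marrow against spleen difference was set beside that of 3 other sorts of the same genotype, also treated with tamoxifen. These were YFP+ cells of mice of 24 weeks at tamoxifen taken at day 90 (4 marrow and 4 spleen libraries), YFP- cells of the young mice at day 90 (4 and 4, mice F2, F9, M2 and M7) and YFP+ cells of 24-week mice taken at day 5 (3 and 4).

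Plasma cells are the antibody-secreting end stage of the B lineage. They make large amounts of immunoglobulin in an enlarged endoplasmic reticulum under the transcription factors Prdm1, Irf4 and Xbp1. Those that persist are held in niches, in the marrow by stromal cells and by the survival signals that reach the receptor BCMA, and a smaller resident population stays in the red pulp of the spleen. The comparison between organs asks what the 2 sites hold in common and where the marked cells differ.

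The 6 libraries had 8458396 to 10790282 counts, and the deposited table leaves out immunoglobulin genes. Levels are CPM, counts relative to the TMM-scaled library size, in the order of mice F2, F7 and F9. Changes are log2 values of marrow over spleen ± SE from 1 edgeR quasi-likelihood fit of the 43 assigned libraries with mouse as a block, and a gene passed at a Benjamini-Hochberg adjusted p under 0.05. Plasma cell markers were high in both organs, as the sort label has it. Jchain, the joining chain of secreted antibody, took 20.8, 32.5 and 32% of the counts of the marrow libraries and 20.5, 19.9 and 26.7% of those of the spleen libraries. Sdc1, which encodes CD138, stood at 654, 626 and 446 CPM in marrow and 630, 871 and 530 in spleen. Xbp1, Mzb1 and the BCMA gene Tnfrsf17 were present in every library, with log2 changes of 0.13 ± 0.17, 0.10 ± 0.19 and 0.01 ± 0.19. Prdm1 was at 90.2, 81.3 and 67.5 CPM in marrow and 104, 134 and 85.2 in spleen (-0.43 ± 0.16, adjusted p = 0.549 in edgeR). Irf4 overlapped between the organs (-0.14 ± 0.17). Of the 18 genes of the plasma cell identity list none passed, and 5 had a positive and 13 a negative change. The list's median was -0.12, against -0.01 for all genes tested.

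The organs differed in few genes. Of 12457 genes tested 11 passed (0.0883%), 7 higher in marrow (0.0562%) and 4 lower (0.0321%). At an unadjusted p under 0.05 there were 745 (5.98%). The 3 marrow and 3 spleen libraries did not overlap for 794 genes with marrow above spleen (6.37%) and 876 with marrow below (7.03%). Higher in marrow were the protease genes Napsa and Prss57, the lymphocyte GTPase Gimap7, Morn1, and 3 genes of low level best known from other tissues, Ermn, Syt5 and Upk3a. Of the genes lower in marrow, the adhesion receptor Adgre5, the membrane protein Slc66a2 and the class I chain H2-K1 are described, so that 10 of the 11 follow. Prss57, Ermn, Syt5 and Upk3a lay below the level of 20 CPM that the naming rule asks for, and are named after their values were seen.

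**Figure D1:**
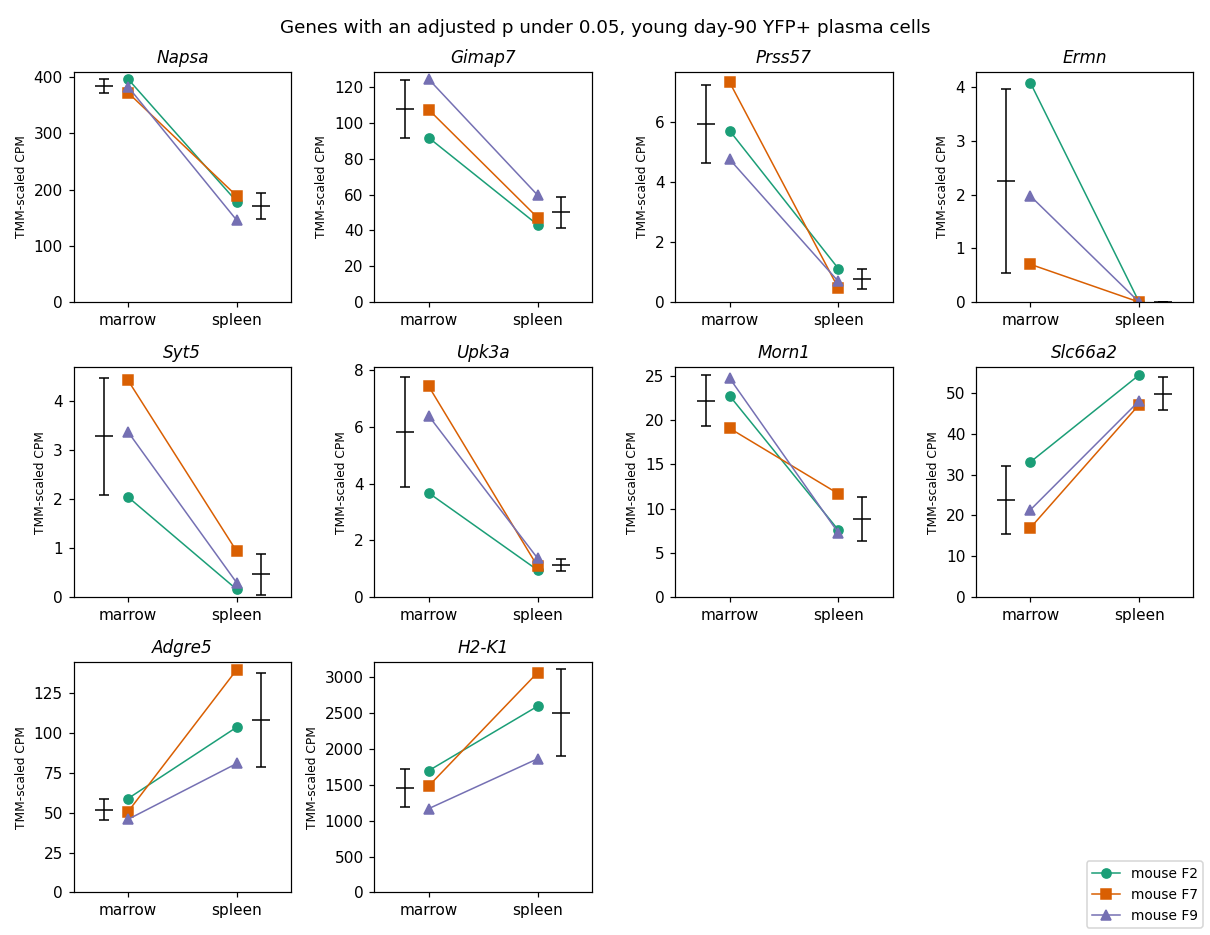
TMM-scaled CPM of 10 genes with an adjusted p under 0.05, marrow at left and spleen at right in each panel. Coloured points are libraries, lines join the organs of 1 mouse, and black bars are the mean ± SD of 3 libraries; in every panel the organs do not overlap.

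Napsa, the aspartic protease napsin A known from lung and kidney, had 397, 373 and 383 CPM in marrow, against 179, 189 and 146 in spleen. The marrow libraries lay close together and all stood above the spleen libraries. The log2 change was 1.17 ± 0.17 (adjusted p = 0.00187 in edgeR), and it was positive in each of the 3 mice. Gimap7, a GTPase of the family that governs lymphocyte survival, had 91.8, 108 and 125 CPM in marrow and 43.2, 47.2 and 59.8 in spleen. In both organs mouse F2 was lowest and F9 highest, so the change within mice was even (1.11 ± 0.17, adjusted p = 0.00366 in edgeR; 1.06 to 1.18 by mouse). Morn1, a protein of MORN repeats, was at 22.8, 19.1 and 24.7 CPM in marrow, against 7.59, 11.7 and 7.28 in spleen (1.34 ± 0.27, adjusted p = 0.042 in edgeR). Mouse F7 had the lowest marrow and the highest spleen value.

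The GIMAP genes lie in a cluster, and the other 7 measured members were looked up after Gimap7 had been seen to pass. None of them passed. Gimap5, whose loss in mice and rats depletes lymphocytes, was at 60.9, 58.3 and 67.7 CPM in marrow, against 39.7, 31.3 and 39.2 in spleen (0.77 ± 0.19, adjusted p = 0.121 in edgeR). Gimap1 had 309, 326 and 363 CPM in marrow and 258, 230 and 263 in spleen (0.41 ± 0.13, adjusted p = 0.337 in edgeR). The organs did not overlap in either gene. Gimap3, Gimap4 and Gimap9 had changes of -0.01 ± 0.34, 0.20 ± 0.19 and 0.17 ± 0.16.

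Prss57, a serine protease stored in neutrophil granules, was at 5.71, 7.33 and 4.76 CPM in marrow, against 1.12, 0.468 and 0.689 in spleen. The log2 change was 2.94 ± 0.48 (adjusted p = 0.00453 in edgeR). The summed level of 9 neutrophil and precursor markers was 65.2, 11.4 and 259 CPM in marrow and 23.5, 2.96 and 2.85 in spleen. Of the 8 tested, 7 had a positive and 1 a negative change, and none passed. The granule protein genes Elane, Mpo, Prtn3 and Ctsg were at or below 0.408 CPM in every marrow library. S100a9 was at 36.3, 6.0 and 74.6 CPM in marrow and 12.9, 1.7 and 1.57 in spleen. Ngp was at 7.14, 1.0 and 101 CPM in marrow and 1.2, 0 and 0 in spleen. The part of neutrophils in the level of Prss57 was not tested. Ermn, a cytoskeletal protein of oligodendrocytes, had 40, 7 and 17 counts in marrow (4.08, 0.703 and 1.97 CPM) and none in the 3 spleen libraries. Its change passed (adjusted p = 0.0251 in edgeR). With the libraries of each organ pooled, the marrow level was 26.7 times a floor of 3 counts over the spleen group. That ratio holds no spread between mice. By mouse the log2 difference ran from 2.13 to 4.36, with a small count added to each library. Syt5, a synaptotagmin of secretory vesicles, had 2.04, 4.42 and 3.37 CPM in marrow, against 0.16, 0.935 and 0.295 in spleen (2.98 ± 0.57, adjusted p = 0.0317 in edgeR). Upk3a, a uroplakin of bladder epithelium, had 3.67, 7.43 and 6.39 CPM in marrow and 0.959, 1.09 and 1.38 in spleen (2.30 ± 0.45, adjusted p = 0.0366 in edgeR). All 4 rest on 7 to 74 counts in a marrow library.

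Markers of B cells, which plasma cells reduce as they mature, stood beside the genes that passed as follows. Ms4a1, which encodes CD20, was at 55.3, 36.8 and 66.4 CPM in marrow and 89.4, 72.6 and 90 in spleen, without overlap (-0.69 ± 0.33, adjusted p = 0.793 in edgeR). Pax5, the B cell identity factor, had no count in the marrow libraries and at most 0.16 CPM in spleen. The summed level of the 6 B cell markers ran from 41.4 to 76.8 CPM in marrow and 93.9 to 116 in spleen. In bulk RNA fewer cells of a type and less RNA per cell cannot be told apart.

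Adgre5, which encodes CD97, an adhesion G protein-coupled receptor of leukocytes, was at 58.8, 50.5 and 45.8 CPM in marrow, against 104, 140 and 80.8 in spleen (-1.03 ± 0.21, adjusted p = 0.0434 in edgeR). Each marrow library lay below every spleen library. Slc66a2, a PQ-loop membrane protein, was at 33.1, 17 and 21.4 CPM in marrow, against 54.3, 47.1 and 48 in spleen (-1.12 ± 0.23, adjusted p = 0.042 in edgeR). Exons of Napsa, Prss57, Ermn and Adgre5 overlap a gene on the other strand in GENCODE M21. Those of Gimap7 and Adgre5 overlap a gene on the same strand. Whether the counting used strand is not stated, so reads of these pairs may not be told apart.

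H2-K1, a classical class I heavy chain that presents peptides to cytotoxic T cells, was the most abundant gene to pass. It was at 1696, 1483 and 1167 CPM in marrow, against 2592, 3060 and 1860 in spleen (-0.78 ± 0.16, adjusted p = 0.0434 in edgeR). All 3 marrow libraries lay below all 3 spleen libraries. The other classical chain of the list, H2-D1, lay apart in the same direction, at 2750, 2558 and 2308 CPM in marrow and 4279, 5174 and 3294 in spleen. Its change of -0.72 ± 0.20 did not pass (adjusted p = 0.206 in edgeR). The non-classical chain H2-Q7 overlapped between the organs, at 228, 147 and 125 CPM in marrow and 362, 290 and 205 in spleen (-0.79 ± 0.26, adjusted p = 0.413 in edgeR). H2-Q6, added after the values were seen, also overlapped, at 122, 70.6 and 56.4 CPM in marrow and 164, 146 and 102 in spleen (-0.78 ± 0.22, adjusted p = 0.261 in edgeR). The class I heavy chains are similar in sequence and may share reads, so their values are uncertain as single genes.

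The other genes of the class I pathway did not pass. B2m, the light chain that all of them need, was at 7202, 6924 and 6871 CPM in marrow and 5962, 5706 and 7118 in spleen (0.16 ± 0.23). The immunoproteasome subunits Psmb8 and Psmb10 lay above spleen in every marrow library, with changes of 0.28 ± 0.16 and 0.34 ± 0.17 that did not pass. Of the 16 genes of the list 1 passed, 7 had a positive and 9 a negative change, and the median was -0.22. Of 30 interferon response genes none passed, and 21 had a negative change (median -0.29, negative as in most lists).

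These heavy chains all had negative changes in young YFP+ cells, though only H2-K1 passed there and H2-Q6 and H2-Q7 overlapped between the organs. The 250 bases before their RefSeq starts (GRCm38.p6) are therefore shown, 5′ to 3′ on the strand of the gene. Capitals mark the letters GGATTCC, the core of the NF-kB site of the class I enhancer, and TGACGC, a form of the CRE-like site beside it. H2-K1 lies at chr17:34000348-34000597 on the minus strand, H2-D1 at chr17:35262844-35263093, H2-Q6 at chr17:35424600-35424849 and H2-Q7 at chr17:35438905-35439154, all 3 on the plus strand. The RefSeq start used for H2-D1 lies 364 bases from its start in GENCODE M21.
H2-K1: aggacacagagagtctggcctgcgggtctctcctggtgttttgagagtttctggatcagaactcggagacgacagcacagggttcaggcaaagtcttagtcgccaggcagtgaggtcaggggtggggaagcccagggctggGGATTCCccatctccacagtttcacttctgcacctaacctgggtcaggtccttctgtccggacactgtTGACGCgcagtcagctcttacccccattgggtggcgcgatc
H2-D1: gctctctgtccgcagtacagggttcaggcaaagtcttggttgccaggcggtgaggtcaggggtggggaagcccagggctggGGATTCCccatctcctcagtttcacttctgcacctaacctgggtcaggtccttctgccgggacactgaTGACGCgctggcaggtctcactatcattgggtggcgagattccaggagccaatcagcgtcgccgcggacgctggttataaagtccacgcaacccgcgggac
H2-Q6: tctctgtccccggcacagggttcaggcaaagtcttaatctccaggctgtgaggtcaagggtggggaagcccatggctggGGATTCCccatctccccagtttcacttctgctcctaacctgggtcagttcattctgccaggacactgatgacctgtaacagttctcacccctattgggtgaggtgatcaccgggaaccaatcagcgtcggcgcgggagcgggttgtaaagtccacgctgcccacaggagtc
H2-Q7: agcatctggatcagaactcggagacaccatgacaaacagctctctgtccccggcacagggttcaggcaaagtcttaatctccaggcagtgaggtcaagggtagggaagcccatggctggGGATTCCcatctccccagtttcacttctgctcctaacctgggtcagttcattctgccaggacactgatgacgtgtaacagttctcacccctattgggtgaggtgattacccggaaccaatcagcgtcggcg

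Searched on both strands, GGATTCC was found in 1041 of 32851 such windows (3.17%) and TGACGC in 2009 (6.12%). The first is in all 4 windows shown, and the second in those of H2-K1 and H2-D1. No match of TGACGC in the windows of H2-Q6 and H2-Q7 says only that these letters are not there. At the like place the window of H2-Q7 reads TGACGT, which was not searched for. The longest identical run was 47 bases between H2-K1 and H2-D1 and 66 between H2-Q6 and H2-Q7, against 21 to 24 between the pairs, so these windows share long stretches of sequence. Of the 16 list members 14 had a window in the table, and of these 3 held the first motif and 3 the second. A match is a description of the letters and no evidence of binding.

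**Figure D2:**
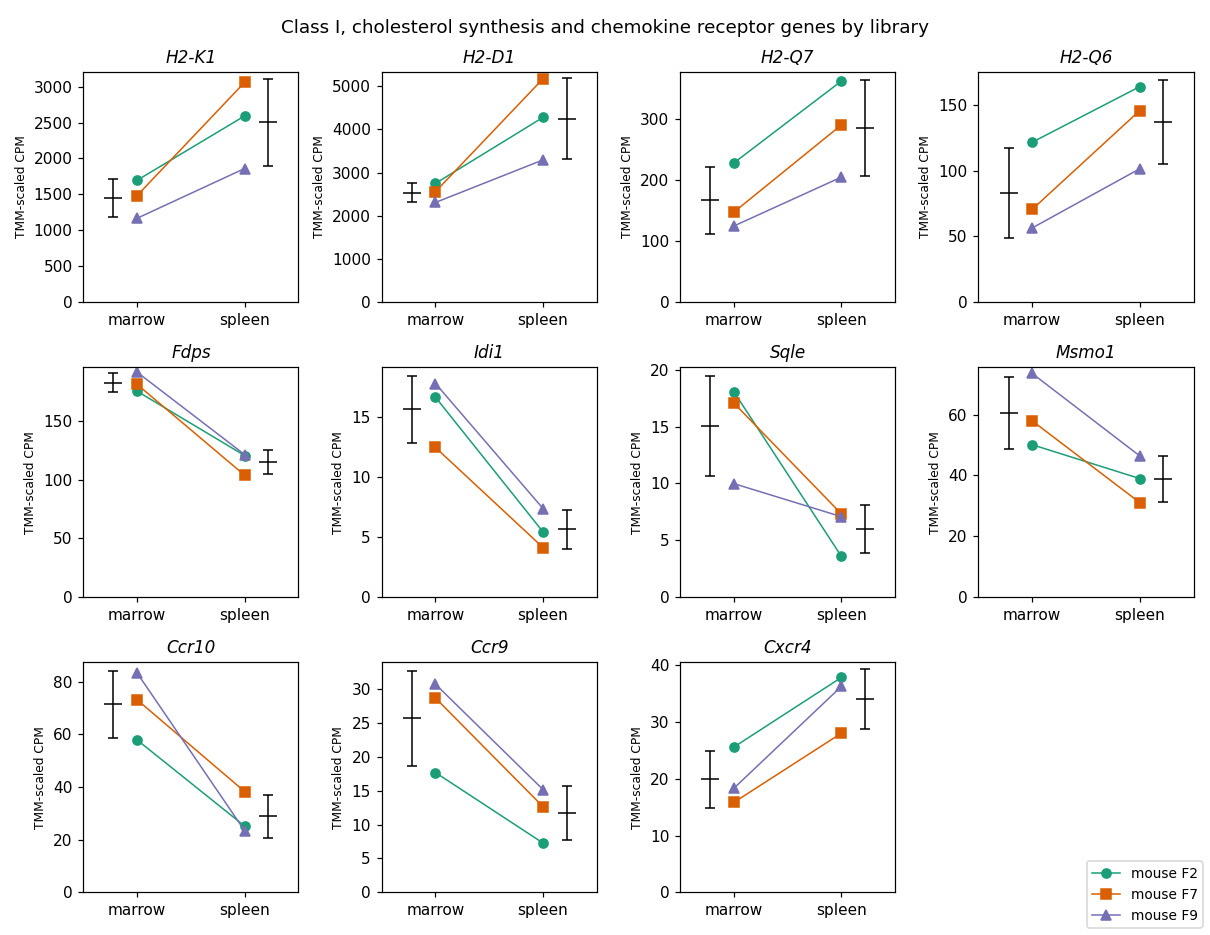
TMM-scaled CPM of 4 class I chains, 4 cholesterol synthesis genes and 3 chemokine receptors, marrow at left and spleen at right. Points are libraries, lines join the organs of 1 mouse and black bars are the mean ± SD of 3 libraries; H2-Q7, H2-Q6 and all others but H2-K1 did not pass in the fit of 43 libraries.

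Sterol synthesis genes lay mostly above spleen in marrow, though none passed. Of 22 genes of the list 17 had a positive change (49.3% of all genes tested did), the median was 0.26, and 7 did not overlap with marrow above spleen (6.37% of all genes). Fdps, the farnesyl diphosphate synthase, was at 175, 181 and 192 CPM in marrow and 121, 104 and 121 in spleen (0.67 ± 0.16, adjusted p = 0.11 in edgeR). Idi1, the isomerase one step before it, was at 16.6, 12.4 and 17.8 CPM in marrow and 5.43, 4.13 and 7.38 in spleen (1.49 ± 0.37, adjusted p = 0.121 in edgeR). Sqle, the squalene epoxidase, was at 18.1, 17.1 and 9.99 CPM in marrow and 3.6, 7.33 and 7.08 in spleen (1.40 ± 0.36, adjusted p = 0.146 in edgeR). Srebf2, a transcription factor that regulates the pathway, overlapped between the organs.

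The 13 mitochondrially encoded genes had a median of 0.53, the highest of the 22 lists that are not markers of other cells, with 11 positive changes and 8 genes whose marrow libraries all lay above the spleen libraries (6.37% of all genes). They took 1.12, 0.981 and 0.836% of the counts in marrow and 0.8, 0.676 and 0.673% in spleen. mt-Co2, a subunit of cytochrome oxidase, was at 1446, 1277 and 1102 CPM in marrow and 808, 662 and 811 in spleen (0.74 ± 0.26, adjusted p = 0.478 in edgeR). None of the 13 passed. mt-Nd4l had no count in the 6 libraries and mt-Co3 none in the spleen library of mouse F9. Mitochondrial RNA also serves as a sign of RNA and cell quality, and its part in other differences was not tested.

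Genes of the endoplasmic reticulum had mostly negative changes, and none passed. Of 32 unfolded protein response and secretion genes 23 had a negative change (median -0.22), 9 did not overlap with marrow below spleen (7.03% of all genes) and 1 with marrow above (6.37% of all genes). Over all genes tested 49.3% had a positive change. Most lists that are not markers of other cells also had a negative median, such as hypoxia response (-0.21) and proliferation (-0.27). The negative lean is therefore not particular to genes of the endoplasmic reticulum. The disulfide isomerase Pdia4 was at 2107, 1841 and 1992 CPM in marrow and 3567, 3517 and 2620 in spleen (-0.70 ± 0.28, adjusted p = 0.653 in edgeR). Pdia6 was at 1778, 1760 and 1608 CPM in marrow and 2458, 2477 and 2237 in spleen (-0.48 ± 0.15, adjusted p = 0.369 in edgeR). The chaperone Hspa5 overlapped between the organs (-0.24 ± 0.26), as did Herpud1 (-0.04 ± 0.26). Of 21 stress response and amino acid genes 17 had a negative change (median -0.32). Slc3a2, the heavy chain of the amino acid carriers that pair with it, was at 4397, 4761 and 4511 CPM in marrow and 7959, 7520 and 6906 in spleen (-0.71 ± 0.20, adjusted p = 0.236 in edgeR). The small heat shock protein Hspb1 was at 10.3, 8.43 and 12.3 CPM in marrow, against 45.5, 21.5 and 33.1 in spleen (-1.60 ± 0.35, adjusted p = 0.0668 in edgeR). Amounts here are shares of all counts left after immunoglobulin genes were taken out.

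**Figure D3:**
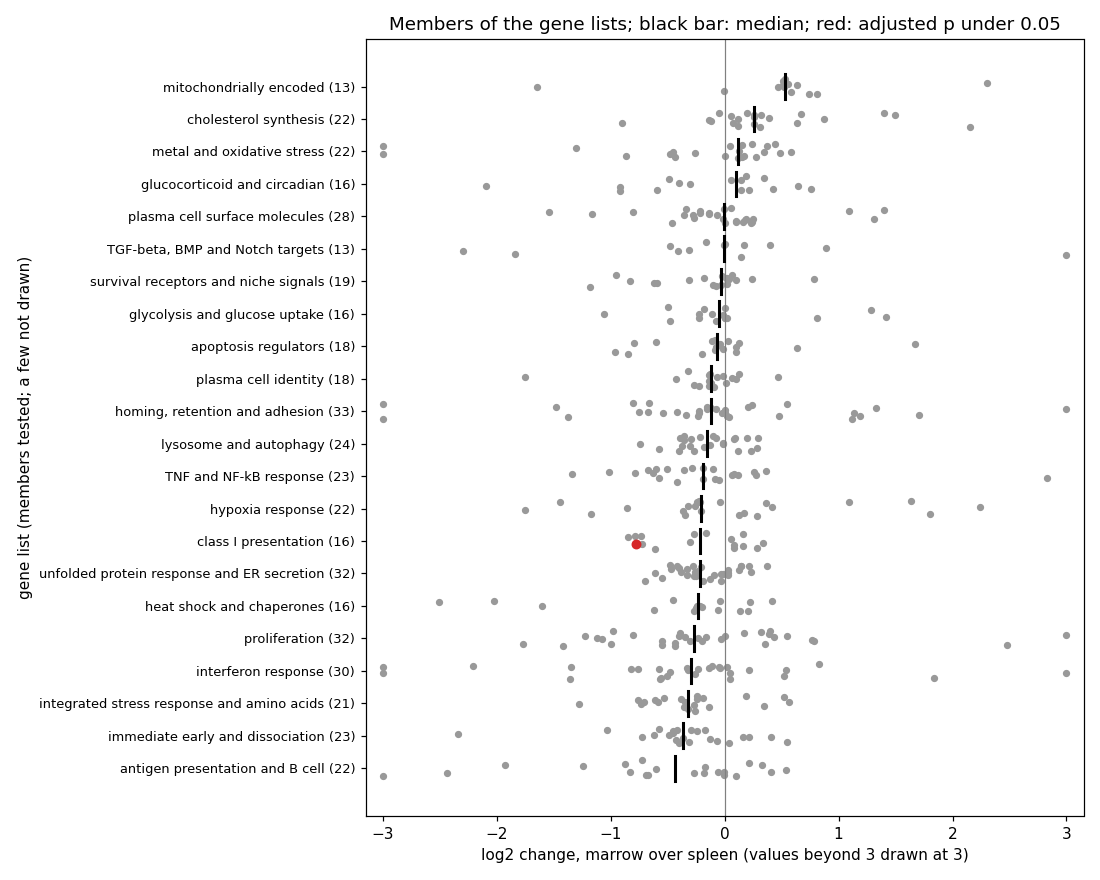
Log2 change of marrow over spleen for the tested members of 22 gene lists, ordered by median, with values beyond 3 drawn at 3 and a few members not drawn. Grey points are genes that did not pass, red points those with an adjusted p under 0.05 (H2-K1) and black bars list medians, from 0.53 for the mitochondrially encoded genes to -0.44 for antigen presentation and B cell genes.

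Receptors for homing and retention did not pass. Of 33 genes 3 did not overlap with marrow above spleen (6.37% of all genes did so) and 5 with marrow below (7.03% of all genes). Ccr10, the receptor for CCL27 and CCL28 that IgA plasma cells use in mucosa, was at 57.9, 73.1 and 83.3 CPM in marrow and 25.2, 38.3 and 23.4 in spleen (1.32 ± 0.34, adjusted p = 0.15 in edgeR). The gut-homing receptor Ccr9 was at 17.6, 28.6 and 30.7 CPM in marrow and 7.27, 12.6 and 15.2 in spleen (1.14 ± 0.35, adjusted p = 0.327 in edgeR). Both receptors stood apart in the same direction. Cxcr4, the CXCL12 receptor that holds plasma cells in marrow, was at 25.6, 15.9 and 18.4 CPM in marrow and 37.9, 28.1 and 36.3 in spleen (-0.81 ± 0.30, adjusted p = 0.553 in edgeR). The adhesion receptor genes Itga4 and Cd44 had changes of -0.16 ± 0.23 and 0.24 ± 0.19. Slamf6, a SLAM-family receptor, came near the threshold with 29.8, 21 and 21.1 CPM in marrow and 13.8, 8.73 and 6.49 in spleen (1.31 ± 0.28, adjusted p = 0.0573 in edgeR). Among survival genes Mcl1, Bcl2 and the BAFF receptor gene Tnfrsf13c had changes of -0.01 ± 0.16, -0.05 ± 0.23 and -0.18 ± 0.22. None of the 19 survival receptor and niche signal genes passed, nor any of 18 apoptosis regulators or 32 proliferation genes.

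A few further genes are named after their values were seen, for their level or their place just past the threshold. Slpi, a secreted inhibitor of leukocyte proteases, was at 22290, 10710 and 14890 CPM in marrow, against 5471, 3569 and 4980 in spleen (1.73 ± 0.37, adjusted p = 0.0631 in edgeR). It was among the most abundant mRNAs of these cells, and its lowest marrow value exceeded its highest spleen value. Lime1, an adaptor of lymphocyte receptor signalling, was at 23.9, 19.2 and 22 CPM in marrow and 7.11, 11.6 and 5.9 in spleen (1.44 ± 0.30, adjusted p = 0.0501 in edgeR). The related adaptor Lat was at 8.16, 17.1 and 20.8 CPM in marrow and 3.36, 5.92 and 4.13 in spleen (1.70 ± 0.45, adjusted p = 0.181 in edgeR). Of the 7 T cell markers 4 had a positive and 3 a negative change, and none passed. Cd3g lay apart, at 4.49, 6.02 and 4.06 CPM in marrow and 2.48, 3.9 and 3.05 in spleen, while Cd3e overlapped at 0, 0 and 3.6 CPM in marrow and 1.36, 1.95 and 0 in spleen. The part of T cells in the values of Lime1 and Lat was not tested. Amigo2, a membrane protein of neurons, was at 15.5, 17 and 8.71 CPM in marrow and 55.9, 51.4 and 32.7 in spleen (-1.78 ± 0.40, adjusted p = 0.0793 in edgeR).

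Markers of red pulp macrophages, the iron-recycling phagocytes of the spleen, were close to absent in marrow and low in spleen. Of 10 monocyte and macrophage markers 8 did not overlap, all with marrow below spleen (7.03% of all genes), and none passed. Vcam1 was at 0, 0 and 0.348 CPM in marrow and 19.6, 20.7 and 9.25 in spleen (adjusted p = 0.121 in edgeR). C1qb was at 0.51, 2.71 and 2.79 CPM in marrow and 46.7, 32.4 and 32.9 in spleen, and Spic, the factor that makes red pulp macrophages, at 0, 1.21 and 0.116 CPM in marrow and 10.8, 16.1 and 6.79 in spleen. The iron exporter Slc40a1 had 0.306, 0.502 and 1.97 CPM in marrow and 51.9, 30.9 and 14.9 in spleen. Lyz2 ran apart from these, at 15.9, 9.54 and 235 CPM in marrow and 13.2, 46.4 and 4.72 in spleen. Cd68, a large part of the list's sum, overlapped at 97, 84.85 and 129 CPM in marrow and 116, 89.1 and 104 in spleen. With both included, the sum was 114, 99.2 and 370 in marrow and 267, 267 and 196 in spleen. Hmox1, looked up beside the list, overlapped too, at 10.5, 18.7 and 37.9 CPM in marrow and 58.5, 62.1 and 30.7 in spleen. The part of such cells in the lower values of H2-K1, Adgre5 and Hspb1 in marrow was not tested.

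**Figure D4:**
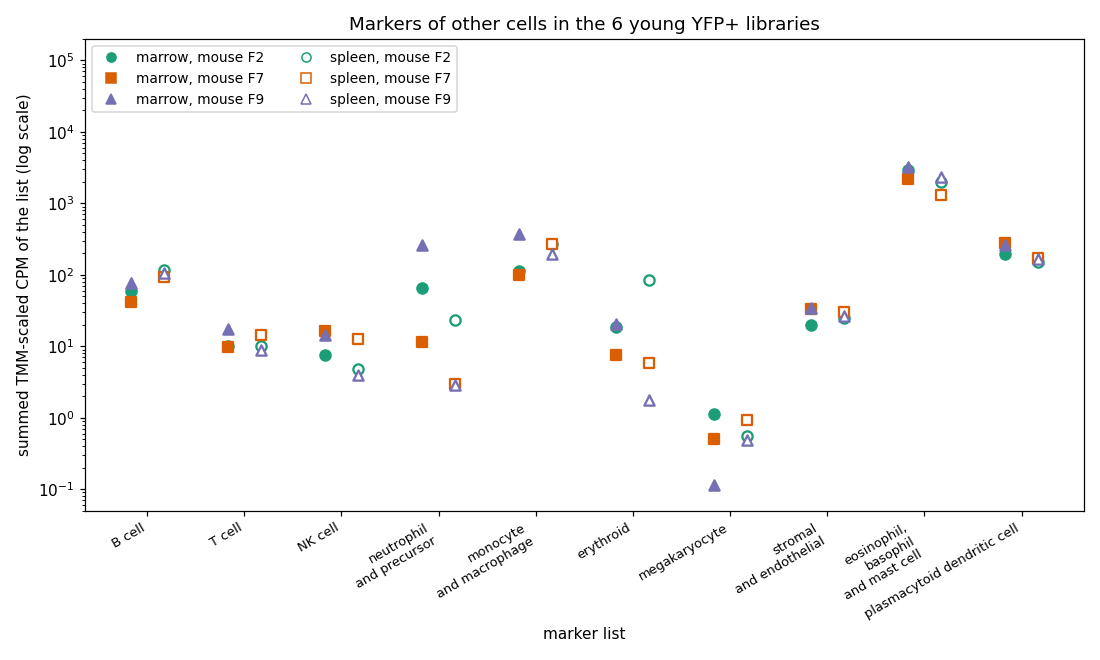
Summed TMM-scaled CPM (log axis) of marker lists of other cells in the 6 libraries, filled symbols for marrow at left and open symbols for spleen at right of each list. The neutrophil sum is highest in the marrow library of mouse F9 (259 CPM) and the erythroid sum in the spleen library of mouse F2 (84 CPM); the eosinophil, basophil and mast cell sum is Prg2 alone.

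Among other markers, neutrophil genes were highest in the marrow library of mouse F9, where Ngp reached 101 CPM and S100a9 74.6. Haemoglobin and other erythroid genes summed to 18.5, 7.63 and 20.5 CPM in marrow and 84, 5.77 and 1.77 in spleen. T cell markers summed to 10, 9.64 and 17.6 CPM in marrow and 9.99, 14.5 and 8.85 in spleen. Of the eosinophil, basophil and mast cell list Epx, Mcpt8 and Cpa3 had no count, while Prg2, an eosinophil granule protein gene that plasma cells also express, was at 2945, 2217 and 3229 CPM in marrow and 1976, 1318 and 2366 in spleen (0.59 ± 0.25, adjusted p = 0.72 in edgeR). Siglech, of plasmacytoid dendritic cells, was at or below 0.714 CPM in marrow and had no count in spleen.

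The number of calls depended on which libraries were fitted. Fitted on the 14 libraries of the young mice alone, 153 of 11399 genes passed (1.34%), 71 higher (0.623%) and 82 lower (0.719%), all 11 among them. Of the genes above, that fit also called H2-D1 (adjusted p = 0.00197), H2-Q7 (0.000687), and H2-Q6 (0.00676) lower in marrow by edgeR. It called Fdps (0.0052), Idi1 (0.00684), Sqle (0.0177) and Msmo1 (0.0343) higher, 4 of 22 sterol genes, and 5 of the 12 mitochondrially encoded genes it tested. Lower were 4 of 32 endoplasmic reticulum genes (Calr, Canx, Pdia4 and Pdia6), 3 of 21 stress response genes (Slc3a2, Slc7a5 and Sesn2) and 3 of 10 macrophage markers (Vcam1, Csf1r and Spic). Ccr10 (0.0124), Gimap5 (0.012), Lime1 (0.0052), Lat (0.0101) and Prg2 (0.0124) were higher, and so was Gimap1 (0.0419). Amigo2 (4.98e-05), Hspb1 (0.00839) and Slc40a1 (0.019) were lower. Slpi and Slamf6 were not called in it. The fit of 43 libraries takes its spread from all 12 groups, and the fit of 14 from 4.

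Leaving out the libraries of a mouse ended most calls. Without mouse F2 no gene passed (smallest adjusted p = 0.0564 in edgeR), without F7 there were 2 calls, with Napsa kept, and without F9 there was 1. Each such fit leaves 2 pairs. Without the mouse block 1 gene passed, Napsa (adjusted p = 0.0256 in edgeR). DESeq2 called 130 genes, all 11 among them.

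In the other comparisons of marrow against spleen the 10 genes described divided. In YFP+ cells of the 24-week mice at day 90, where 66 genes passed (0.53%; 35 higher, 0.281%, and 31 lower, 0.249%; 1003 or 8.05% at an unadjusted p under 0.05), all 10 had the same sign and 4 passed: Gimap7, Prss57, Morn1 and Slc66a2. Gimap7 changed there by 0.84 ± 0.15, with 78.4 to 170 CPM in marrow and 45.9 to 97.2 in spleen, and was higher in marrow in 4 of 4 mice (adjusted p = 0.00548 in edgeR). Prss57 changed by 2.06 ± 0.39 (3.49 to 11.4 CPM in marrow, 0.27 to 3.49 in spleen). H2-K1 was at 1099 to 1733 CPM in marrow and 1404 to 2345 in spleen (-0.56 ± 0.14, adjusted p = 0.0602 in edgeR). Of the other class I chains shown, H2-Q7 passed in these cells (-1.11 ± 0.23, adjusted p = 0.0142 in edgeR), while H2-D1 and H2-Q6 did not. Napsa differed less, at 262 to 323 CPM in marrow and 195 to 273 in spleen (0.23 ± 0.15).

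YFP- cells of young mice gave 26 calls between the organs (0.209%), 17 higher (0.136%) and 9 lower (0.0722%), and 785 genes at an unadjusted p under 0.05 (6.3%). Of the 10 genes 7 had the same sign there and 1 passed. That gene was Adgre5, at 31.4 to 40.9 CPM in marrow and 56.7 to 97.4 in spleen (-0.91 ± 0.18, adjusted p = 0.0222 in edgeR). H2-K1 was at 1157 to 1542 CPM in marrow and 1742 to 2247 in spleen, lower in marrow in 4 of 4 mice (-0.61 ± 0.14, adjusted p = 0.0565 in edgeR). Outside the 10 genes, H2-Q7 (-1.085 ± 0.229, adjusted p = 0.0315 in edgeR) and H2-Q6 (-0.91 ± 0.20, adjusted p = 0.0378 in edgeR) passed in YFP- cells, while H2-D1 did not. Napsa, Gimap7 and Prss57 showed almost no organ difference in YFP- cells (0.06 ± 0.15, -0.04 ± 0.15 and -0.09 ± 0.32). Prss57 was at 11.6 to 33 CPM in YFP- marrow and 9.91 to 39.3 in YFP- spleen, above every YFP+ library of young mice in both organs. Slc66a2 had the opposite sign (0.38 ± 0.20). Mice F2 and F9 gave both sorts, so the YFP- values are not from separate animals.

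At day 5 after tamoxifen no gene passed in YFP+ cells of 24-week mice (0%, 283 at an unadjusted p under 0.05 in edgeR, 2.27%). Napsa was at 346 to 455 CPM in marrow and 314 to 433 in spleen, and Gimap7 at 129 to 222 CPM in marrow and 59.2 to 185 in spleen. Adgre5 (-0.62 ± 0.21) and H2-K1 (-0.33 ± 0.16) were lower in marrow in 3 of 3 paired mice, without passing. Age and time differ together in that comparison.

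**Figure D5:**
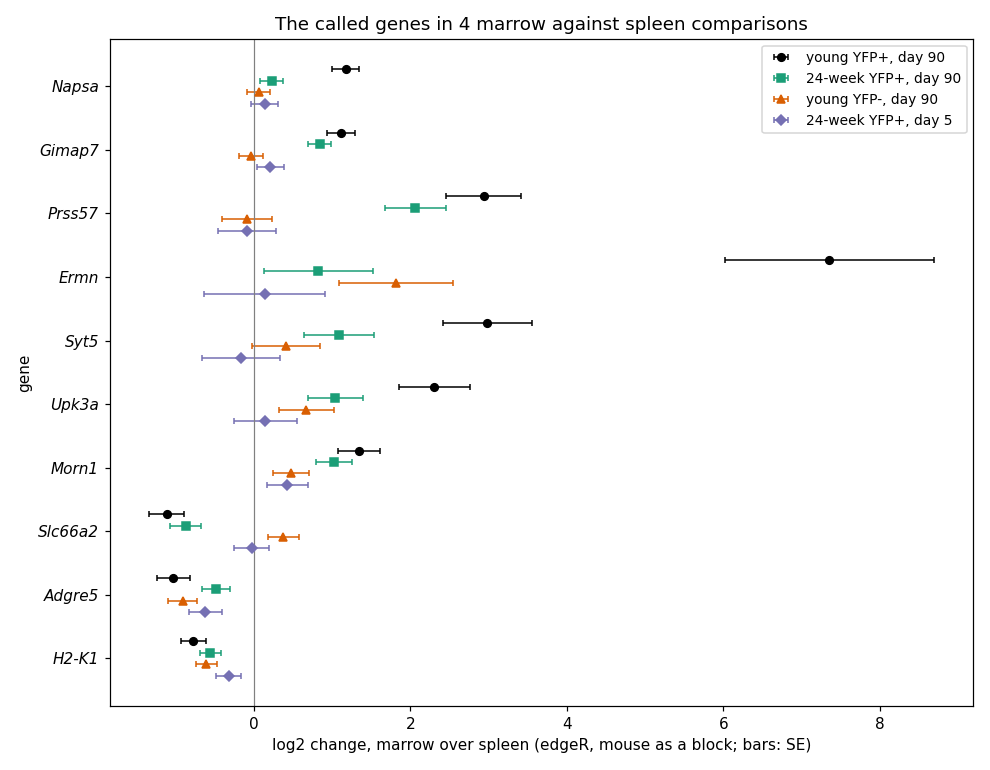
Log2 change of marrow over spleen ± SE (edgeR, mouse as a block) of 10 genes in 4 comparisons, listed from the lowest p of young YFP+ cells at top. For H2-K1 and Adgre5 all 4 changes are negative, for Gimap7 and Prss57 the 2 YFP+ comparisons at day 90 lie to the right of the other 2.

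Tested directly, no gene's organ difference in young YFP+ cells passed as different from any of these. Against 24-week YFP+ cells the smallest edgeR adjusted p was 0.469, with 358 genes at an unadjusted p under 0.05 (2.87%), 57 called by DESeq2 and 0 by voom. Against young YFP- cells 5 genes shared the smallest adjusted p of 0.0655 in edgeR, Prss57 (difference of log2 changes 3.03 ± 0.58), Gimap7 (1.15 ± 0.23), Napsa (1.12 ± 0.22) and Slc66a2 (-1.49 ± 0.30) among them, with 375 unadjusted (3.01%), 34 in DESeq2, 0 in voom and 12 in the fit of the 14 young libraries. Against day-5 YFP+ cells the smallest was 0.309 for Prss57, with 322 unadjusted (2.58%), 53 in DESeq2 and 0 in voom. For H2-K1 the 3 differences were -0.22 ± 0.21, -0.17 ± 0.21 and -0.45 ± 0.23, in the same order. None of the organ differences can therefore be called particular to young YFP+ cells.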

How the data were processed

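Per the labels, the kits were SMART-Seq v4 for cDNA and Nextera XT for libraries. RSEM 1.3.1, STAR 2.6.1b and DESeq2 1.26.0 stand in the submitters' processing notes, beside builds GRCm38 and GRCm39. The authors deposited expected counts per gene without immunoglobulin genes (54960 rows, 44 libraries, 3.1% of values not whole), which were rounded. Low input cDNA is amplified, and counting intervals would not cover that step.

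The 43 libraries with an unambiguous group were fitted once with edgeR 4.0.16 in R 4.3.3 (TMM, filterByExpr with a minimum count of 10, robust quasi-likelihood F test): 12 group means and 13 mice as fixed terms, 21 residual degrees of freedom, common dispersion 0.117. P-values were adjusted by Benjamini-Hochberg over 12457 genes, with a threshold of 0.05. The step was run on simulated counts without differences between mice, with changes set only in genes of higher count. That run does not cover low genes such as Ermn and Syt5, nor differences between mice. SE is the size of the log2 change divided by the root of F. Libraries of a mouse share an animal, which gives the pairing. The residuals of marrow and spleen correlated across genes at 0.137 in F2, 0.005 in F7 and 0.114 in F9. Against spleens of the other mice the values ran from -0.176 to 0.061, -0.077 to 0.063 and -0.064 to -0.062. The value of the F7 pair lay within its range.

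The named genes passed with at least 2-fold change and 20 CPM, filled by p at any fold, and list members were added; a few genes are not reported here. The comparison, members and lists were chosen with earlier results of these data known. Promoters are from RefSeq (GRCm38.p6). Alternatives used limma 3.58.1 and DESeq2 1.42.0.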

Additional observations from a re-analysis of the deposited data

How the results depend on the processing

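For young YFP+ marrow against spleen 11 genes passed. With no replicate block (mouse not in the fit) 1 passed, with no filter on low counts 20, with DESeq2 130, with the 6 libraries fitted alone 125 (48 higher and 77 lower, 9 of the 11 among them) and with the 14 young libraries 153. Leaving out a mouse gave 0 to 2, each with fewer pairs. DESeq2 size factors gave 10, a stricter filter 10 and voom 13 (7 of the 11 among them). In the difference from 24-week YFP+ cells, where no gene passed, no filter gave 1, DESeq2 57 and leaving out a mouse 0 to 1, the 1 without F9. In the difference from young YFP- cells no filter gave 2, DESeq2 34 and the fit of 14 libraries 12. In the difference from day-5 YFP+ cells no filter gave 1 and DESeq2 53. The block changed no call in the 3 differences. No direction of the 11 genes turned in any setting. Each setting reused these libraries, and each gene had the same sign in all 3 mice, so that is no separate support. Napsa passed in 9 of 11 settings (1.06 to 1.27), and Syt5 in 3 of 10. The cause of these shifts was not tested. Low genes such as Ermn and Syt5 rest on few counts. With 3 pairs, differences small beside the spread between mice and the counting error were not detectable.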

Other observations

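Of gene groups not described above, lysosome and autophagy genes had 17 of 24 negative changes (median -0.16, negative as in most lists) with no member passing. The cathepsin Ctsb was at 1598, 1830 and 1890 CPM in marrow and 2256, 2452 and 2248 in spleen (-0.39 ± 0.17, adjusted p = 0.752 in edgeR, 0.0278 in the fit of the 14 young libraries). Pfkp, a phosphofructokinase, was at 116, 110 and 113 CPM in marrow, against 235, 268 and 209 in spleen (-1.06 ± 0.37, adjusted p = 0.472 in edgeR, 0.00128 in the fit of 14). The median of the 16 glycolysis genes tested was -0.05. The death receptor Fas was at 28.1, 36.1 and 30.1 CPM in marrow and 18.7, 21 and 20.9 in spleen (0.63 ± 0.21, adjusted p = 0.394 in edgeR, 0.0486 in the fit of 14).

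The cold-inducible RNA-binding protein genes Rbm3 and Cirbp were looked up after the values were seen. Rbm3 was at 194, 232 and 229 CPM in marrow and 112, 120 and 166 in spleen (0.74 ± 0.17, adjusted p = 0.103 in edgeR, 0.0045 in the fit of 14). Cirbp overlapped between the organs, at 68.6, 131 and 159 CPM in marrow and 37.4, 78.9 and 130.3 in spleen (0.62 ± 0.19, adjusted p = 0.315 in edgeR, 0.0257 in the fit of 14). The immediate early and dissociation genes had a median of -0.36 with 18 of 23 negative and none passing, and Fos overlapped between the organs. What was done to either tissue between dissection and sorting is not given in the sources used here.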
